A study of Mus musculus with 8 samples.

Results

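Desmosomes are the rivet-like junctions that hold keratinocytes together. Their adhesive proteins, the desmogleins (Dsg) and desmocollins (Dsc), are cadherins that bind their counterparts on the neighbouring cell, and inside the cell desmoplakin (Dsp) ties them to the keratin filaments. In the outermost epidermis the secreted protein corneodesmosin (Cdsn) is built into these junctions, which are then called corneodesmosomes and are cut by proteases when the surface is shed. Filaggrin, the product of Flg, is made in the same upper layers. The genes described here are 10 of 49671 genes in the count table, chosen by name: the desmogleins Dsg1a, Dsg1b, Dsg2, Dsg3 and Dsg4, the desmocollins Dsc1, Dsc2 and Dsc3, and Cdsn and Dsp.

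RNA sequencing was carried out on whole shaved back skin of mice aged 8 weeks. There were 4 libraries with the flg genotype wt/wt (wild type) and 4 with ko/ko (knockout), and the comparison asks how Flg deficiency alters expression in the skin as a whole. The sources used here give neither the making of the knockout allele nor the strain or sex of the mice. Whether the libraries of a genotype are different animals is not stated, so p-values measure the spread between these samples, which may in part be technical. In whole tissue, fewer cells of a type and less RNA per cell cannot be told apart.

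Library totals ran from 18483242 to 38545957 counts. Levels are given as CPM, read counts scaled to library size with a correction for library composition (TMM). Flg itself was lower in all 4 knockout libraries, at 24.5 ± 1.97 CPM against 59.0 ± 9.77 CPM (SD, n = 4 each), with a log2 fold change of -1.27 ± 0.12 (SE, edgeR adjusted p = 0.00326). Epidermal identity was clear in both genotypes: the keratin genes Krt5 and Krt10 stood at 2647 and 3554 CPM in wild type and at 2285 and 3313 CPM in knockout. Wild-type replicates 1 and 4 stood apart on the first principal component (37.1% of the variance), at -33.1 and -28.0, while the other wild-type libraries lay at -5.94 and 4.09 and the knockout libraries between 9.90 and 22.3. The tested members were therefore also fitted without these 2 libraries, a choice made after seeing the data. White adipocyte marker genes, summed over 12 of 12 genes, covered 1942 to 4226 CPM in wild type and 3348 to 5001 CPM in knockout. Of these 12 genes, 11 had edgeR estimates above 0 (median 0.80 against -0.02 over all genes). By edgeR 0 had an adjusted p under 0.05, and 10 had an unadjusted p under 0.05, against 19.5% of all genes. DESeq2 called 6 and limma voom 10, against 6.16% and 13.3% of all genes. The 6 T cell markers summed to 40.4 to 54.2 CPM in wild type and 20.6 to 36.8 CPM in knockout. All 6 had edgeR estimates below 0 (median -0.75), as had 53.3% of all tested genes. Of them, 1 was lower at an adjusted p under 0.05, as were 0.702% of all genes. The 7 endothelial markers summed to 232.2 to 457.8 CPM in wild type and 459.0 to 551.1 CPM in knockout, ranges that were barely apart. Taken singly, 3 of these 7 genes had edgeR estimates above 0 and 4 below (median -0.13), and 0 had an adjusted p under 0.05. The higher endothelial sum therefore does not describe most of these genes. Sums for sebocytes, skeletal muscle, fibroblasts, melanocytes, macrophages and Langerhans cells overlapped between genotypes. At an edgeR adjusted p under 0.05, 1 of 5 melanocyte genes was lower and 1 of 6 macrophage and Langerhans cell genes higher. In either direction 1.41% of all genes passed. None of the listed markers was at 0 in all libraries, and their part in the results below was not tested.

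None of the desmosomal genes differed between knockout and wild type by the test over all genes. Of the 10 genes, 9 passed the filter on low counts, and the edgeR quasi-likelihood test called 0 of these 9, where 1.41% of all 19099 tested genes were called. With 9 genes, 0 calls are close to that background and are no finding about the family. No member had an unadjusted p under 0.05, a level that 19.5% of all tested genes reached, and the smallest was 0.178, for Dsc3. DESeq2 called 0 of the 9, and 0 had an unadjusted p under 0.05, against 6.16% and 19.5% of all genes. Limma voom with quality weights also called 0, and Dsc1 and Dsg1b had an unadjusted p under 0.05, both above 0 (0.88 and 0.45), against 13.3% and 31.5% of all genes. Without wild-type replicates 1 and 4, edgeR called 0 of 9 against 1.93% of all genes, and Dsc3 and Dsg1b had an unadjusted p under 0.05, both below 0 (-0.34 and -0.27), against 18.3%. The direction of Dsg1b was thus opposite in these settings. Adjusted p-values from edgeR ran from 0.454 to 0.881. The estimates lay on both sides of 0, with 4 genes above and 5 below, and their median of -0.05 was near the median of -0.02 over all genes tested. The signs depended on the setting: without wild-type replicates 1 and 4 all 9 lay below 0, with a median of -0.25 against -0.01 over all genes, and with limma voom 7 lay above 0 and 2 below, with a median of 0.05. No CPM range of any of the 10 genes separated the genotypes. Over all tested genes, which leave out Dsg4, 11.5% had groups that did not overlap. With 10 genes, 0 is near that share and is no finding about the family.

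The plot of levels by library shows how widely the family is spread in abundance and that the genotypes overlap for every member. Whether the levels were equal was not tested.

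**Figure D1:**
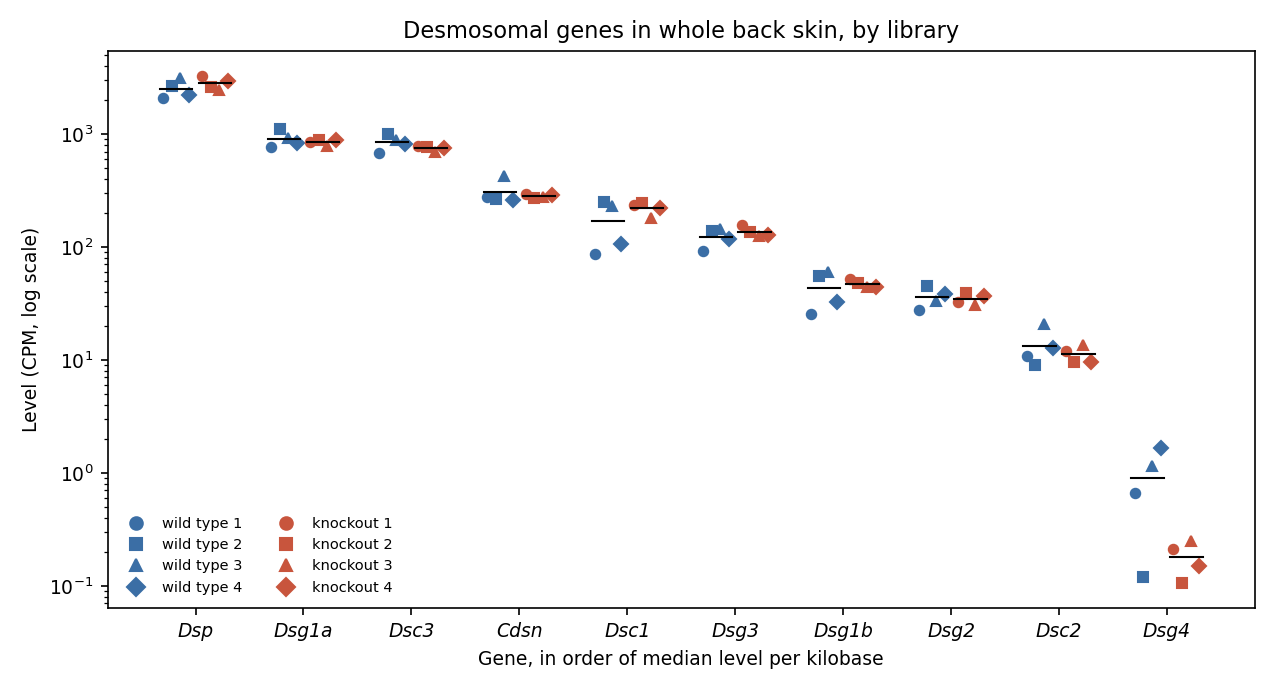
Level of each of the 10 genes in each library (y axis, CPM on a log scale; x axis, genes in order of median level per kilobase). Blue symbols are wild type, red are knockout, symbol shapes mark the replicate, and black lines are group means. Genotypes overlap for every gene, and Dsc1 is low in wild-type replicates 1 and 4, at 86.7 and 106.4 CPM.

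To compare genes with each other, CPM was divided by exon length in kilobases. On this per-length scale the levels fell into the order Dsp, Dsg1a, Dsc3, Cdsn, Dsc1, Dsg3, Dsg1b, Dsg2, Dsc2 and Dsg4. Dsp was highest, with a median of 276.0 CPM per kilobase over the 8 libraries (214.9 to 338.8), and its range did not overlap that of Dsg1a at 152.9 (135.5 to 195.8). Dsc3 at 146.2 (128.4 to 190.0) overlapped both of its neighbours, Dsg1a above and Cdsn below. Cdsn at 103.0 (96.7 to 157.2) did not overlap Dsc1, the next lower gene. Dsc1, at 59.9 (23.0 to 66.5), overlapped Dsg3 at 32.0 (22.5 to 37.9) only through its low wild-type libraries. Dsg1b followed at 11.7 (lowest 6.44), apart from both of its neighbours. Dsg2 at 4.22 (3.34 to 5.46) and Dsc2 at 2.16 (1.71 to 3.98), the forms known from a broad range of epithelia and from heart, overlapped each other. Dsg4, known for its role in the hair shaft, was lowest at 0.0662 (0.0308 to 0.478).

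Desmoplakin, the obligate link to keratin (chromosome 13, positions 38151328 to 38198577, plus strand, mm10), stood at 2069, 2686, 3167 and 2201 CPM in wild-type replicates 1 to 4. In knockout replicates 1 to 4 it was 3261, 2627, 2433 and 2933 CPM. The highest knockout library was only just above the highest wild-type library, and wild-type replicates 1 and 4 were the lowest of all 8. The log2 fold change was 0.15 ± 0.16 (SE), with a 95% interval from -0.20 to 0.50. As a fold of the wild-type level, the interval for Dsp ran from 0.872 to 1.42. Without wild-type replicates 1 and 4 the estimate was -0.06.

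Among the desmogleins, Dsg1a (chromosome 18, positions 20310811 to 20343350, plus strand) is a mouse copy of desmoglein 1, the main desmoglein of the upper epidermis. It measured 771, 1113, 921 and 838 CPM in wild type and 855, 893, 778 and 884 CPM in knockout. The knockout libraries all fell within the wild-type range, and the log2 fold change was -0.10 ± 0.12 (SE, 95% interval -0.37 to 0.17), or -0.25 ± 0.12 without wild-type replicates 1 and 4. Dsg1b (positions 20376729 to 20410196), a neighbouring copy, measured 25.5, 55.0, 59.7 and 32.7 CPM in wild type and 52.6, 48.0, 44.4 and 44.3 CPM in knockout. Wild-type replicates 1 and 4 were again the lowest, and the estimate of 0.13 ± 0.24 (SE) turned to -0.27 ± 0.10 without them (edgeR adjusted p = 0.177).

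The copies of desmoglein 1 are so alike that reads can be shared. Of all stretches of 75 bases in the annotated Dsg1b transcripts, 37.5% also occurred in Dsg1a, and 17.9% of those of the third copy, Dsg1c, occurred in Dsg1a. No stretch of this length was shared with any other desmoglein or desmocollin. How reads with several alignments were counted is not stated in these sources, so the split between copies is uncertain. With Dsg1a, Dsg1b and Dsg1c summed to 1 feature, the log2 fold change was -0.08 ± 0.13 (SE, edgeR adjusted p = 0.769). Dsg1c alone, which is not among the 10 genes, measured 5.14, 17.9, 20.1 and 6.33 CPM in wild type and 14.0 to 18.2 CPM in knockout. Its estimate of 0.38 ± 0.41 (SE, edgeR adjusted p = 0.639) passed only with limma voom and quality weights, at 1.08 (adjusted p = 0.0428), where 13.3% of all genes were called, and was -0.24 without wild-type replicates 1 and 4.

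Dsg3 (positions 20510304 to 20541310, plus strand), the desmoglein of the basal layers and of the hair follicle, measured 92.4, 138.8, 143.2 and 118.8 CPM in wild type and 155.7, 134.9, 124.0 and 127.8 CPM in knockout. Its log2 fold change was 0.14 ± 0.13 (SE, 95% interval -0.16 to 0.43), or -0.05 ± 0.10 without wild-type replicates 1 and 4. Knockout replicate 1 was the highest library for both Dsg3 and Dsp. Dsg2 (positions 20558074 to 20604521) was nearly level, at 27.6 to 45.1 CPM in wild type and 30.7 to 38.9 CPM in knockout, with a log2 fold change of -0.05 ± 0.14 (SE, 95% interval -0.37 to 0.27), or -0.17 ± 0.14 without wild-type replicates 1 and 4.

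Dsg4 (positions 20436175 to 20471821, plus strand) was close to the limit of detection and did not pass the filter. It had 23, 3, 27 and 42 counts in wild-type replicates 1 to 4 and 8, 2, 6 and 4 counts in knockout replicates 1 to 4. This corresponds to 0.664, 0.119, 1.14 and 1.66 CPM in wild type and 0.211, 0.107, 0.250 and 0.150 CPM in knockout. Thus 3 wild-type libraries exceeded all knockout libraries, and wild-type replicate 2 lay among the knockout values. For that replicate the exact 95% Poisson interval, which covers counting error only, was 0.0245 to 0.347 CPM, and for wild-type replicate 1 it was 0.421 to 0.997 CPM. An exact two-sided permutation test over the 8 libraries gave p = 0.114 for the mean CPM, where 0.0286 is the smallest value that 4 against 4 libraries can give.

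Fitted without the low-count filter, Dsg4 had a log2 fold change of -2.24 ± 0.64 (SE, edgeR adjusted p = 0.146), where 1.38% of all genes were called. Among the 6 settings in which it could be fitted, it passed in 1, without wild-type replicate 2, at -2.59 ± 0.41 (edgeR adjusted p = 0.0142), where 1.63% of all genes were called lower. That setting removes the 1 wild-type library lying among the knockout values, and Dsg4 then passes the filter through the wild-type libraries in which it is high, so the call follows from the removal and is given as a description only. Hair keratin genes were scarce in the same libraries, and knockout replicate 4 stood apart in them. The 14 measured genes of the hair shaft and inner root sheath list summed to 12.7 to 19.4 CPM in wild type, to 9.85 to 13.8 CPM in knockout replicates 1 to 3 and to 76.8 CPM in knockout replicate 4. Krt71, a keratin of the inner root sheath, had 614 counts there against 5 to 31 in the other libraries, while Dsg4 had 4. Other genes of the list were ordered differently. Krt72 had 23, 0, 6 and 16 counts in wild-type replicates 1 to 4 and 2, 1, 0 and 1 in knockout. Krt73 had 15, 0, 8 and 7 counts in wild type and 0, 0, 1 and 56 in knockout. Krt28 had 30 to 58 counts in wild type and 30 to 66 in knockout. The 5 genes of this list that passed the filter all had estimates above 0, with a median of 0.85, and edgeR, DESeq2 and limma voom each called 0 of them. Among these, Krt27, Krt71 and Tchh were at 6.81, 23.0 and 26.4 CPM in knockout replicate 4. In wild type they measured 0.198 to 0.636, 0.712 to 0.910 and 7.72 to 13.6 CPM. Knockout replicates 1 to 3 gave 0.289 to 0.321, 0.268 to 0.553 and 6.64 to 9.37 CPM, not above the wild-type range. Their estimates above 0 thus rest on knockout replicate 4. Krt35 was also highest there, at 1.42 CPM, while Krt28 was not. The part of hair follicle state in the Dsg4 values was not tested.

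Among the desmocollins, Dsc3 (chromosome 18, positions 19960930 to 20002097, minus strand) is the main form of the basal layers. It measured 681, 1008, 887 and 811 CPM in wild type and 784, 767, 693 and 754 CPM in knockout. The knockout values lay in the lower part of the wild-type range, with a log2 fold change of -0.18 ± 0.12 (SE, 95% interval -0.44 to 0.09, edgeR adjusted p = 0.454). Without wild-type replicates 1 and 4 the estimate was -0.34 ± 0.11 (adjusted p = 0.143). Dsc2 (positions 20030633 to 20059554) was low throughout, at 10.8, 9.01, 21.0 and 12.7 CPM in wild type and 12.0, 9.64, 13.7 and 9.58 CPM in knockout. Its estimate of -0.25 ± 0.24 (SE) was 0.06 without wild-type replicate 3, -0.42 ± 0.32 without wild-type replicates 1 and 4, and -0.70 ± 0.30 with the adipocyte covariate (edgeR adjusted p = 0.415).

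Dsc1 (positions 20084703 to 20114773, minus strand), the desmocollin of the upper layers, varied most among the 9 tested members in wild type. It measured 86.7, 251.1, 228.8 and 106.4 CPM in wild type and 235.1, 245.9, 181.3 and 223.2 CPM in knockout. Wild-type replicates 1 and 4 were the lowest of all libraries, replicate 2 was the highest and replicate 3 lay within the knockout range. The log2 fold change was 0.40 ± 0.33 (SE, 95% interval -0.34 to 1.13, edgeR adjusted p = 0.535), so that a rise of up to 2.19-fold or a fall to 0.790 of wild type lies within the interval. With limma voom and quality weights for each library it was 0.88 ± 0.26 (adjusted p = 0.0589). Without wild-type replicates 1 and 4 it was -0.11 ± 0.12 (edgeR adjusted p = 0.668).

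Corneodesmosin (chromosome 17, positions 35552128 to 35557180, plus strand) measured 276.5, 263.5, 421.0 and 258.8 CPM in wild type and 294.6, 271.8, 275.3 and 288.4 CPM in knockout. All knockout libraries lay between the lowest and the highest wild-type library, and wild-type replicate 3 stood well above the other 7. The log2 fold change of Cdsn was -0.11 ± 0.15 (SE, 95% interval -0.43 to 0.21), and 0.09 ± 0.07 without wild-type replicate 3 (edgeR adjusted p = 0.459). With the mean of the adipocyte markers as a covariate it was -0.53 ± 0.14 (adjusted p = 0.210). In that fit 0 of all genes were called. Of the adipocyte markers, 11 of 12 had estimates above 0 in knockout, so that fit cannot fully separate genotype from the covariate. The estimate for Cdsn was -0.27 ± 0.16 without wild-type replicates 1 and 4.

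**Figure D2:**
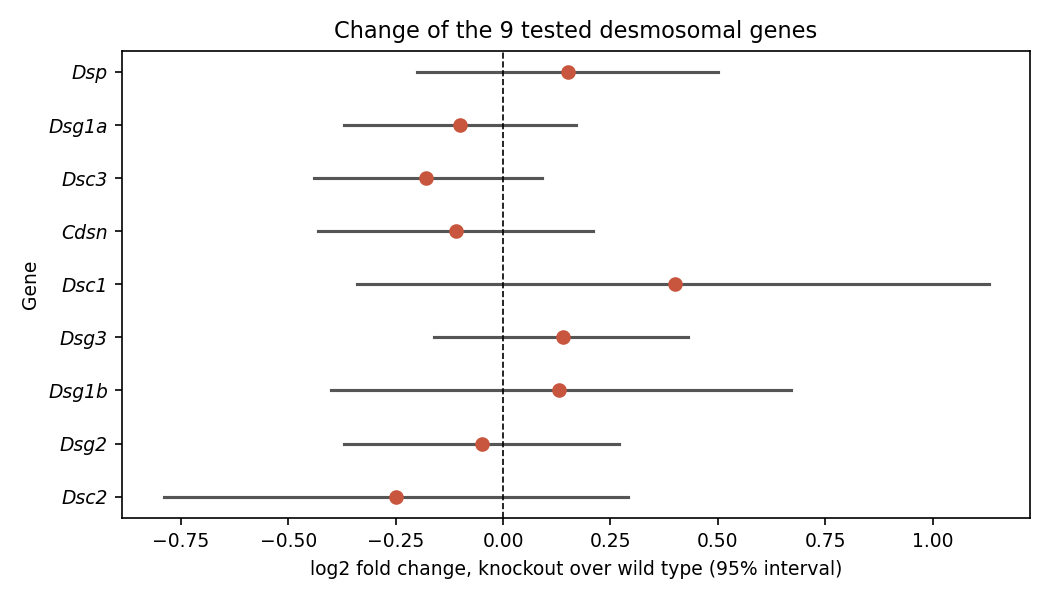
Log2 fold change of knockout over wild type for the 9 tested genes (x axis; points are edgeR estimates, lines their 95% intervals, 4 libraries per genotype; y axis, genes in order of level per kilobase). All 9 intervals include 0, and the widest is that of Dsc1, from -0.34 to 1.13.

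Within each library, desmogleins and desmocollins as counted here were at nearly equal levels per length. The ratio of the summed desmogleins to the summed desmocollins lay between 0.933 and 1.10 in all 8 libraries. The desmoglein sum leaves out Dsg1c and consists mostly of Dsg1a. Of the 75-base stretches of Dsg1a, 26.0% also occurred in Dsg1b and 12.8% in Dsg1c. How such reads were counted is not stated, so the level of Dsg1a, its share and this ratio are uncertain. Dsg1a made up 78.0 ± 2.39% of desmoglein level per length in wild type and 75.3 ± 1.59% in knockout (SD, n = 4), and Dsg3 made up 14.6 ± 1.32% and 16.6 ± 1.34%. The composition of the desmocollins differed more. In wild-type replicates 2 and 3 Dsc1 made up 25.8 and 26.2% of desmocollin level per length, and in wild-type replicates 1 and 4 it made up no more than 15.4%. In the knockout libraries its share was 29.3, 30.8, 26.5 and 29.1%. The mean was 20.6 ± 6.24% in wild type against 28.9 ± 1.78% in knockout (SD, n = 4). Every knockout library exceeded every wild-type library, although knockout replicate 3 and wild-type replicate 3 differed by little.

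Ratios between genes of the same library do not depend on how libraries are scaled, and 5 were compared between genotypes. The ratio of Dsc1 to Dsc3, an upper-layer over a basal form, was 0.127, 0.249, 0.258 and 0.131 in wild type, against 0.262 to 0.321 in the knockout libraries. On the log2 scale it averaged -2.47 ± 0.56 in wild type and -1.77 ± 0.12 in knockout (SD, n = 4), a difference of 0.70 or 1.62-fold. The exact two-sided permutation p was 0.0286, the smallest possible, and 0.143 after Benjamini-Hochberg adjustment over the 5 ratios, so the difference did not pass. The difference was 0.21 without wild-type replicates 1 and 4.

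The other 4 ratios overlapped between genotypes. Dsg1a and Dsg1b together over Dsg3 was 8.62, 8.42, 6.85 and 7.33 in wild type, against 5.83, 6.97, 6.63 and 7.26 in the knockout libraries, a log2 difference of -0.22 (exact permutation p = 0.114, adjusted p = 0.179). Cdsn over Dsp was 0.134, 0.0981, 0.133 and 0.118 in wild type, against 0.0903, 0.103, 0.113 and 0.0983 in the knockout libraries, a log2 difference of -0.24 (exact permutation p = 0.143, adjusted p = 0.179). Dsc2 over Dsg2 differed by -0.16 (exact permutation p = 0.686, adjusted p = 0.686). Dsg4 over Dsc1 differed by -2.40 (exact permutation p = 0.114, adjusted p = 0.179), with wild-type replicate 2 among the knockout values. This value was unstable: it was -1.15 with a pseudocount of 1 CPM, -3.44 without wild-type replicate 2 and -0.98 without wild-type replicates 1 and 4.

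**Figure D3:**
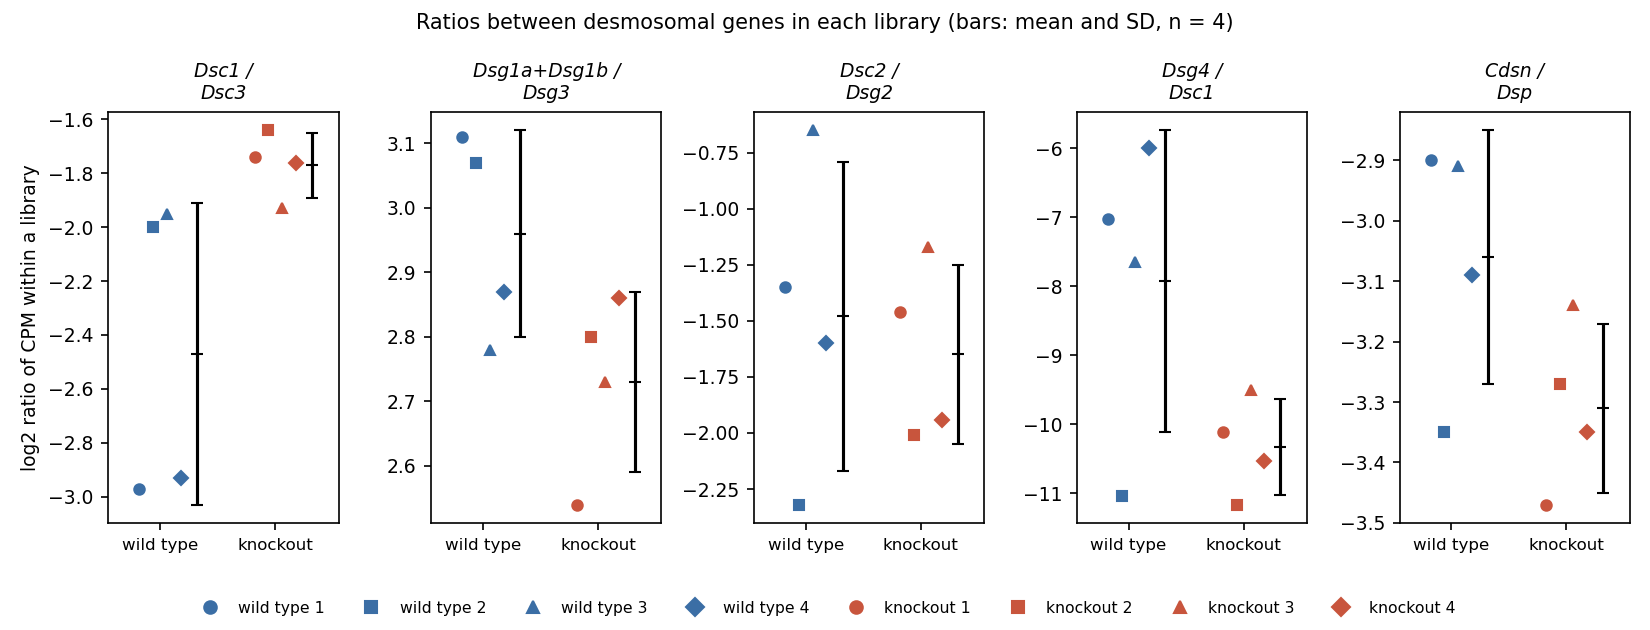
Log2 ratio of CPM between members within each library for 5 gene pairs (y axis, a separate scale in each panel; x axis, genotype). Symbols are libraries, and bars are means with SD over 4 libraries. For Dsc1 over Dsc3 the knockout libraries lie between -1.93 and -1.64 and the wild-type libraries between -2.97 and -1.95, and in the other panels the genotypes overlap.

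Spread between libraries was larger in wild type than in knockout for all 9 tested genes. The coefficient of variation of CPM was higher in wild type for each of them, as it was for 74.0% of all tested genes. It was 49.7% for Dsc1 in wild type against 12.8% in knockout, 38.6% against 8.29% for Dsg1b, and 25.5% against 3.82% for Cdsn. Wild-type replicates 1 and 4 were both below replicates 2 and 3 for 6 of the 9 genes: Dsg1a, Dsg1b, Dsg3, Dsc1, Dsc3 and Dsp. This order was seen in 25.4% of all tested genes. For Cdsn and Dsc2 the high library was wild-type replicate 3 instead.

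For some members, the 3 nearest genes outside the family were picked from 13514 named genes. Distance was the root mean square difference of log2 CPM, each gene centred on its mean over the 8 libraries. Close matches follow from this choice and are given as a description only. For Dsg1a the 3 nearest were Cdcp1, Uevld and Lacc1, at no more than 0.0518, against a spread of 0.156 for Dsg1a itself. Dsp was followed by Zfyve26, Kdm2b and Sbsn at 0.0507 to 0.0592, against its own 0.221. Sbsn, which encodes the suprabasal keratinocyte protein suprabasin, measured 608, 780, 877 and 630 CPM in wild type. Cdsn was followed by Ripor2, Scnn1a, which encodes a subunit of the epithelial sodium channel, and Mroh1, at 0.0665 to 0.0709 against its own 0.211. For Dsg4 the nearest were Cilp2, Elovl3, which encodes a fatty acid elongase of sebaceous glands and fat, and the granzyme gene Gzmc, at the larger distances of 0.410 to 0.538 against its own 1.18. Cilp2 had 7.11, 1.07, 5.10 and 6.57 CPM in wild type and 1.01 to 1.37 CPM in knockout, a profile that follows from its choice as the gene most like Dsg4. For Dsc1, added after its values were seen, they were Gprin2, Adgrf2 and Lmbrd2, at 0.0636 to 0.135 against its own 0.556.

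The desmosomal plaque and its associated proteins gave 0 of 10 genes called, with 4 above and 6 below 0 and a median log2 fold change of -0.02, equal to that over all genes. By edgeR 2 of the 10 had an unadjusted p under 0.05, against 19.5% of all genes. DESeq2 and limma voom each called 2, against 6.16% and 13.3% of all genes. Jup, encoding the plakoglobin that binds the cadherin tails, stood at -0.08, and Pkp1, encoding plakophilin 1, at -0.01; both were named after their values were seen. The lowest p belonged to Pkp3, encoding plakophilin 3, at 250.6 ± 9.80 CPM in wild type and 205.0 ± 14.5 CPM in knockout (SD, n = 4; log2 fold change -0.29 ± 0.08 SE, edgeR adjusted p = 0.0920). Perp, a membrane protein of desmosomes and a target of p63, had 1984 ± 181 and 1541 ± 40.6 CPM (log2 fold change -0.36 ± 0.10, adjusted p = 0.103). The genotypes did not overlap for either gene, as for 11.5% of all tested genes. DESeq2 called both (adjusted p = 0.0166 and 0.00211), where 6.16% of genes were called. Perp also passed with limma voom (adjusted p = 0.0122) and with edgeR without wild-type replicate 3 (0.0407). Pkp3 passed in neither of these settings (0.0503 and 0.0695). Ppl, encoding periplakin, stood at 0.23 ± 0.13 and Pkp2 at 0.33 ± 0.23, with overlapping groups.

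The proteases and inhibitors that act on corneodesmosomes had 1 of 8 genes called lower, where 0.702% of all genes were, and 0 called higher. All 8 estimates were below 0, as were 53.3% of all tested genes, with a median of -0.27 against -0.02 over all genes. The list was chosen with earlier results of these data known, so its counts and median are given as a description only. Cst6, whose product cystatin E/M inhibits cathepsins, was at 454 ± 104 CPM in wild type and fell to 249.7 ± 21.7 CPM (SD, n = 4; log2 fold change -0.86 ± 0.16 SE, edgeR adjusted p = 0.0359). Its call ended without wild-type replicate 1 or 4, without any 1 of the 4 knockout replicates, without wild-type replicates 1 and 4 together (-0.77, adjusted p = 0.109), and with the adipocyte or the basal epidermis covariate (-1.18 and -0.83, adjusted p = 0.103 and 0.0741). Over all 17 alternatives the log2 fold change of Cst6 lay between -1.18 and -0.75. Klk7, a kallikrein that cleaves corneodesmosin, had 178.0 ± 16.4 and 137.3 ± 10.6 CPM (log2 fold change -0.38 ± 0.09, adjusted p = 0.0651). Klk7 passed with DESeq2 (adjusted p = 0.00814), limma voom (0.0154), no low-count filter (0.0423) and without wild-type replicate 2 (0.0382) or 3 (0.0372). Of the 8 genes, DESeq2 called 2 and limma voom 3, and 4 had an unadjusted p under 0.05 by edgeR. Over all genes these shares were 6.16%, 13.3% and 19.5%. Spink5, which encodes the kallikrein inhibitor LEKTI, stood at -0.30 ± 0.10 (adjusted p = 0.150), and Klk14, another kallikrein at no more than 1.16 CPM, at -1.30 ± 0.46 (adjusted p = 0.167).

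In the other related lists no gene passed the edgeR test, and 1 or 2 genes of each had an unadjusted p under 0.05. Over all genes 1.41% passed by edgeR and 19.5% had such an unadjusted p, while DESeq2 called 6.16% and limma voom 13.3%, so these counts are near the background. The adherens junction gave 0 of 9 (median -0.03; 1 by DESeq2, 2 by limma voom), with Vcl, encoding vinculin, at 0.59 ± 0.16 (SE, adjusted p = 0.101) and Cdh1, encoding E-cadherin, at -0.17 ± 0.08. Basal epidermis and hemidesmosome genes gave 0 of 9 (median -0.02; 1 by each other tool), with Krt15 at -0.41 ± 0.14 and Krt5 at -0.21 ± 0.11. Suprabasal epidermis genes gave 0 of 8 (median -0.12; 0 by each other tool), with Krtdap at -0.34 ± 0.14. Regulators of epidermal and hair cadherins gave 0 of 8 (median -0.13; 0 by DESeq2, 1 by limma voom). Grhl1, a grainyhead-like factor known to act on desmoglein 1, stood at -0.19 ± 0.08 and Msx2, a hair follicle factor, at -0.69 ± 0.28. With the mean of the basal epidermis list as a covariate, 0 of the 9 desmosomal genes were called.

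**Figure D4:**
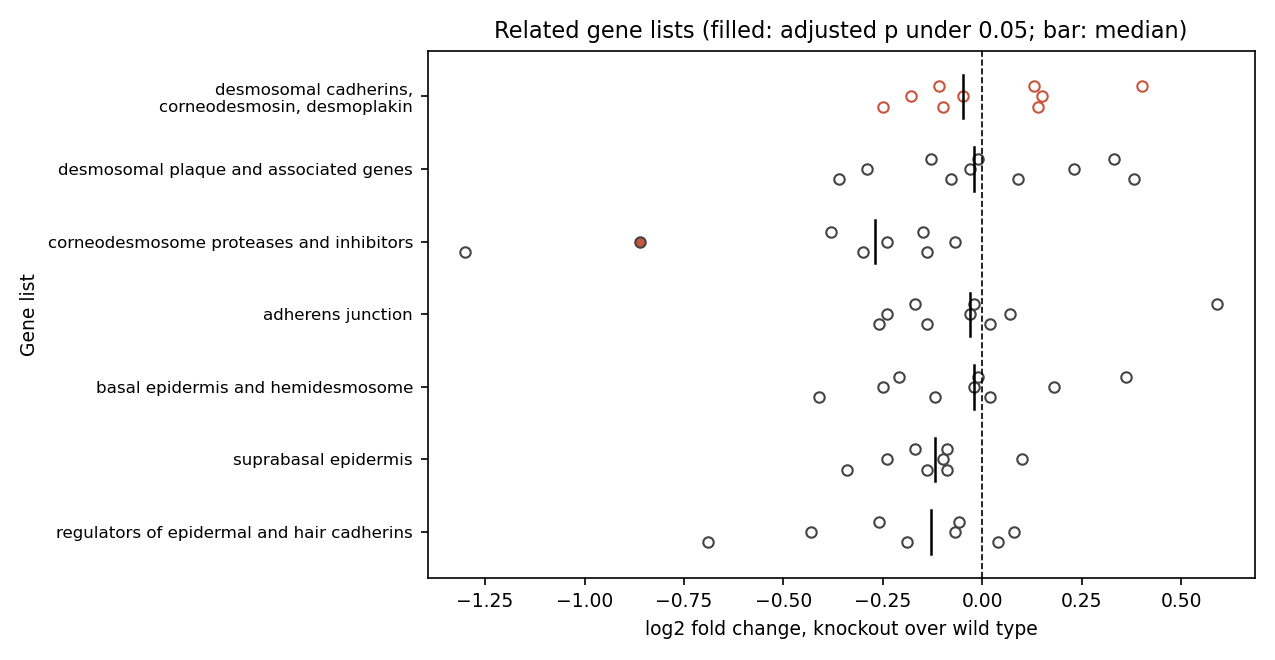
Log2 fold change of knockout over wild type (x axis) for the 9 tested desmosomal genes and for the genes of 6 related lists (y axis). Each circle is a gene, filled where the edgeR adjusted p is under 0.05, and vertical bars are medians. The filled circle is Cst6 at -0.86, and the 7 medians lie between -0.27 and -0.02.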

How the data were processed

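The submitters' processing notes name GSNAP, featureCounts 1.6.2 and the mm10 build, without saying how each was run. The design text names a SMART protocol and the sample labels a strand-specific kit, and the strand setting is not given in the sources used here. The deposited values are whole-number read counts per gene, not normalized. The 92 spike-in features, with at most 1 count per library, were left out, and a table of gene identifiers and symbols matched 49326 of 49671 genes. Shared sequence was counted in GENCODE M21 transcripts, and 45128 genes had the same span there as in the deposited table. Exons of Dsp and Dsg2 overlap antisense genes with 28 and 38 counts in all.

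All genes were tested with edgeR 4.0.16 (R 4.3.3): low counts removed by filterByExpr, scaling by TMM, and robust quasi-likelihood fits over 8 libraries with genotype as the only term, Benjamini-Hochberg adjustment over 19099 genes and calls at an adjusted p under 0.05. SE came from the F statistic. In simulated data of 18880 genes the fit recovered 46.3% of 1.5-fold, 80.6% of 2-fold and 98.5% of 4-fold changes, and 6.25% of calls were false. Genes were simulated independently, with the same dispersion in both genotypes. In the real data 74.0% of genes varied more in wild type, so these rates may not hold there. Alternatives were RLE factors, library totals, DESeq2 1.42.0, limma 3.58.1 voom, no filter, covariates, summed Dsg1 copies and left-out libraries. Named genes were the 10 members, Flg, and from each related list the called genes and up to 4 with the smallest p. The members, lists and rules were chosen with earlier results of these data known. Replicates were numbered in sample order, which pairs nothing.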

Additional observations from a re-analysis of the deposited data

Results flagged for a closer look

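Cdsn in wild-type replicate 3, at 421.0 CPM, lay far above the other wild-type libraries at 258.8 to 276.5 CPM: the gap to its nearest neighbour was 0.891 of the group's range. It was the 1 group that stood out among 32 examined, and chance alone singles out about 1 in 20 such groups. The same library was also the highest of all 8 for Dsc2, at 21.0 CPM.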

How the results depend on the processing

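None of the members tested passed under 15 of 16 alternatives, and Dsg4 was tested in 6 of them. Dsg4 passed without wild-type replicate 2, so that leaving out 1 library gave 0 to 1 called members. Counts of all called genes were 136 higher and 134 lower. They were 234 and 268 without a low-count filter, 0 and 0 with the adipocyte covariate, 591 and 586 with DESeq2, and 1174 and 1361 with limma voom. With the basal epidermis covariate 65 were lower, and without wild-type replicates 1 and 4 together 227 were higher. Leaving out 1 library gave 9 to 679 higher and 2 to 646 lower. The cause was not tested.

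Estimates of several genes changed sign, also those of Dsc1 and Dsg1c, which were 0.40 and 0.38 in the main fit. With the adipocyte covariate Dsg1b was -0.15, Dsg2 0.12, Dsg3 -0.01, Dsp -0.15 and Dsg1c -0.08. With limma voom Dsg1a was 0.01, Dsg2 0.05 and Cdsn 0.01, and with the basal epidermis covariate Cdsn was 0.01. Without wild-type replicates 1 and 4 together, a setting chosen after seeing the data, Dsg1b was -0.27, Dsg3 -0.05, Dsc1 -0.11, Dsp -0.06 and Dsg1c -0.24. Leaving out 1 library gave ranges of -0.17 to 0.02 for Dsg1a, -0.05 to 0.34 for Dsg1b, -0.16 to 0.08 for Dsg2, -0.40 to 0.06 for Dsc2, -0.18 to 0.09 for Cdsn and -0.44 to 0.11 for the log2 ratio of Dsc2 to Dsg2. Dsc3 kept its negative sign in all 17 alternatives, from -0.34 to -0.08. For Flg the adipocyte covariate ended the call (adjusted p = 0.0835) with a log2 fold change of -1.32 ± 0.20 against -1.27 ± 0.12. No paired analysis was possible because the labels carry no replicate numbers.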
